A study of Rattus norvegicus with 24 samples.

Results

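Rat hearts after 3 days of rotenone were compared with rat hearts after 1 day of rotenone, that is, 4 arrays against 4, or 8 of the 24 arrays of the series. Each array held total RNA from 30 mg of the left ventricle apex of 1 male RccHan Wistar rat, aged 7-8 weeks, which had received chow with 400 ppm rotenone until necropsy. The 4 control rats of day 1 and the 4 of day 3 ate the same chow without rotenone, and their own day 3 minus day 1 difference stands beside each rotenone change. The 4 rotenone and 4 control rats of day 14 entered the statistical fit and served as a later look at the same genes. Different rats were killed on each day, so each change is a difference between groups of 4 animals, and no animal was followed over time.

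Rotenone, a plant-derived inhibitor of respiratory chain complex I, blocks the transfer of electrons to ubiquinone and also binds tubulin, the building block of microtubules. Heart muscle covers most of its energy demand by oxidising fatty acids in mitochondria. In the young rat heart most muscle cells have left the cell cycle, whereas fibroblasts, vessel cells and blood-borne cells of the tissue still divide and fibroblasts lay down collagen.

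Signals are given as log2 intensity of a transcript cluster, the array's probe group for 1 gene or 1 non-coding locus, and per-array values of control hearts are those of days 1 and 3. Of 68842 transcript clusters tested, 144 (0.209%) differed between rotenone day 3 and rotenone day 1 (limma, Benjamini-Hochberg adjusted p under 0.05), 28 (0.0407%) higher at day 3 and 116 (0.169%) lower. They held 112 named genes, 21 higher and 91 lower. Between the control hearts of day 3 and day 1 limma called 0 (0%), with 2443 transcript clusters (3.55%) at an unadjusted p under 0.05, and every other fit that was run called 0 as well. The test of whether the rotenone hearts moved differently from the control hearts called 0 (0%) over all transcript clusters, with 3950 (5.74%) at an unadjusted p under 0.05 and a lowest adjusted p of 0.0826. All 144 called transcript clusters had an unadjusted p under 0.05 in that test, and their control change was at the median 3.9% of the rotenone change. Adjusted over the 22093 genes with 1 transcript cluster each, the same test called 33 genes, 29 of them moving down more in rotenone than in control hearts and 4 moving up more, and all 33 were among the 144. In the same test 4 other settings over all transcript clusters called between 2 and 17, so its count depended on the setting.

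Most of the signals were dim. The array's negative control probes had a 95th percentile of 8.44, and 103 of the 144 transcript clusters, 97 of them falling ones, had a mean below it. Limited to the 10140 transcript clusters above that bound, the test called 107, of which 58.9% were higher at day 3, against 19.4% in the full fit and 8.12% after quantile normalization. The heart samples carried their label: all 10 cardiomyocyte markers lay above the bound, and their mean signal ran from 17.42 to 17.75 over the 8 rotenone arrays. Array medians ranged from 30.7 to 36.5 on the linear scale, and within the 4 groups of days 1 and 3 the mean correlation of an array with its fellow arrays ran from 0.9864 to 0.9904.

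Each of the 144 was set against the control hearts of both days, to see which first-day changes faded and which changes began later. A change was counted as faded where rotenone differed from control at day 1 and the day 3 minus day 1 change ran the other way, and as begun where rotenone differed from control at day 3 in the direction of the change but not at day 1. Since both counts use the same rotenone arrays as the comparison itself, they are descriptions. Of the 116 falling transcript clusters, 83 lay above control at day 1, and a high rotenone value at day 1 enlarges such a fall. There were 14 faded transcript clusters (9 named genes), 11 rising back and 3 falling back, and 94 begun ones (76 named genes), 5 rising and 89 falling. The remaining 36 differed from control on neither day. The median absolute difference from control in the faded class was 0.78 at day 1 and 0.12 at day 3, and in the begun class it was 0.10 at day 1 and 1.13 at day 3. Day 14 shares no array with days 1 and 3, and its difference from control was not used to sort the classes. Its arrays did enter the residual spread that the fit shares over all groups. The day 14 counts are therefore descriptions and no independent test. On that day 48 of the 94 begun changes (51.1%) differed from control in the same direction, where 1989 of all transcript clusters (2.89%) differed in either direction, and all 94 had the same sign. Of the 14 faded changes, 1 (7.14%, Smyd1) differed from control at day 14 in its first-day direction.

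**Figure D1:**
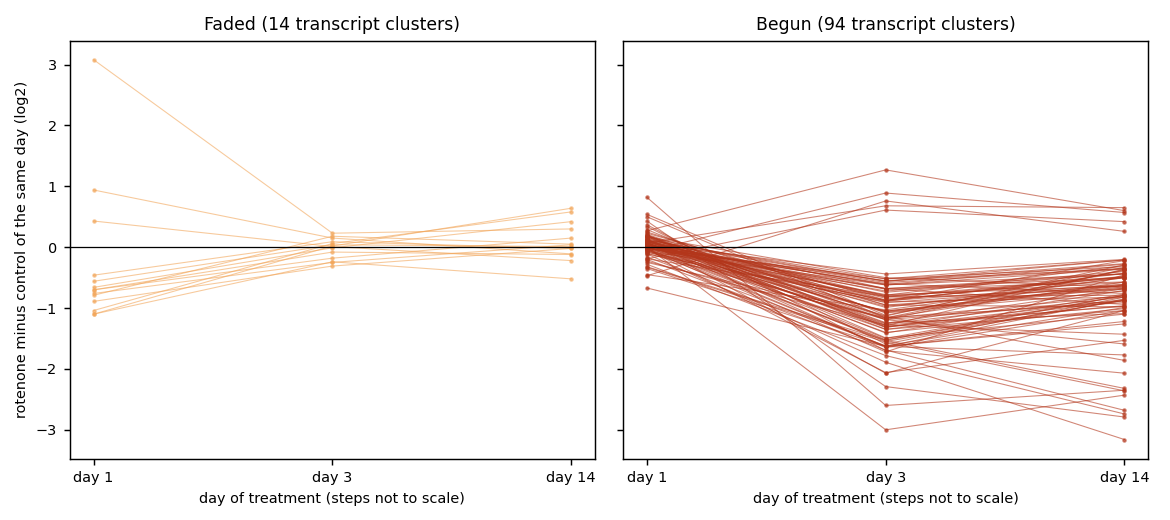
Rotenone minus control of the same day (log2) at days 1, 3 and 14 for each of the 14 faded (left) and 94 begun (right) transcript clusters, 1 line each. The faded lines lie near 0 at day 3. The begun lines lie farther from 0 at day 3 than at day 1 in the median, most of them downwards. At day 1 the begun named genes range from -0.67 to 0.82.

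The largest group of changes that began between both days was a fall of genes for chromosome segregation and cell division. Of 69 measured mitosis and cytokinesis genes, 43 (62.3%) fell and none rose, and the other 26 also had negative values, so that the median change was -0.73, against 0.00 over all genes and -0.06 in control hearts. In 60 of the 69 genes the 4 values of day 3 did not overlap with the 4 of day 1, compared to 1319 of 22093 genes (5.97%) overall. At day 1 the same list lay close to control (median difference 0.05, 0 genes called), with 51 of the 69 genes above it. At day 3 it lay below control (median -0.61, 37 genes called lower, against 306 of all 22093 genes). The list was chosen with earlier results of these data known. In tissue of mixed cells, fewer dividing cells and less RNA per dividing cell cannot be told apart.

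Mki67, whose protein coats mitotic chromosomes and marks dividing cells, showed the largest fall of the named genes. In the rotenone hearts it read 8.76, 9.25, 9.82 and 10.09 at day 1 and 6.07, 6.2, 6.2 and 6.92 at day 3, whereas the control hearts read 9.18 to 9.71 at day 1 and 9.05 to 9.57 at day 3. Among the 16 arrays of days 1 and 3, the 4 rotenone values of day 3 were the lowest, and 1 of them stood above the other three. It fell by 3.13 on the log2 scale (SE 0.35, adjusted p = 0.000387), against a control change of -0.12.

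Top2a, the topoisomerase that untangles replicated chromosomes, read 7.34, 7.68, 8.02 and 8.23 at day 1 and 5.51, 5.52, 5.57 and 6.01 at day 3. It fell by 2.16 (SE 0.25, adjusted p = 0.000387), while the control hearts, at 7.44 to 8.11, changed by -0.13. Prc1, which bundles the microtubules of the central spindle, read 6.6, 7.06, 7.13 and 7.55 at day 1 and 5.11, 5.18, 5.19 and 5.47 at day 3, a change of -1.85. Both genes separated day 3 from the other 12 arrays of days 1 and 3 without overlap. Ccnb2, the mitotic cyclin B2, read 6.16, 7.08, 7.08 and 7.18 at day 1, its lowest array standing apart, and 4.89, 5, 5.36 and 5.42 at day 3. These values are of the brighter of its transcript clusters, which changed by -1.71. Another transcript cluster with the symbol Ccnb2 changed by -1.03 (adjusted p = 0.000764).

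Further falls in this group are given by example, some of them chosen after their values were seen. The spindle motors and poles were represented by Kif11 (-1.55), Aspm (-1.50) and Tpx2 (-1.46, adjusted p = 0.000512), and the kinetochore by Cenpf (-1.48), Cenpe (-1.30) and Knl1 (-1.48). Cytokinesis genes fell likewise, with Kif20a at -1.34 (adjusted p = 0.000387), Ect2 at -1.34, Kif23 at -1.31 and Anln at -1.13. The kinase Cdk1 and its partner Ccnb1 fell, with -0.83 and -0.86, and their day 3 difference from control, -0.59 and -0.46, was not called. Scaled by quantiles the list had 43 calls again, and with equal array medians 31. At the other end of the list the values were -0.13 for the kinase Aurka and -0.06 for the kinetochore subunit Spc24, neither of them called.

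These falls ended at the array's floor. Only 1 of the 43 called mitosis genes, Mki67, had a mean above the negative control bound at rotenone day 1 and none at day 3, although all 43 lay above the median negative control signal (4.96) at day 1 and 29 still did at day 3. The log2 changes of these genes are differences in measured signal next to background, and no fold is given for them. Leaving out any 1 of the 16 arrays of days 1 and 3 changed neither sign nor call of Mki67, Top2a, Prc1, Ccnb2, Tpx2, Cenpe, Cenpf, Aspm or Kif20a, and Mki67 then ranged from -3.37 to -2.93. The day 14 difference from control was -2.43 for Mki67, -1.53 for Top2a and -1.04 for Prc1, all called there.

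**Figure D2:**
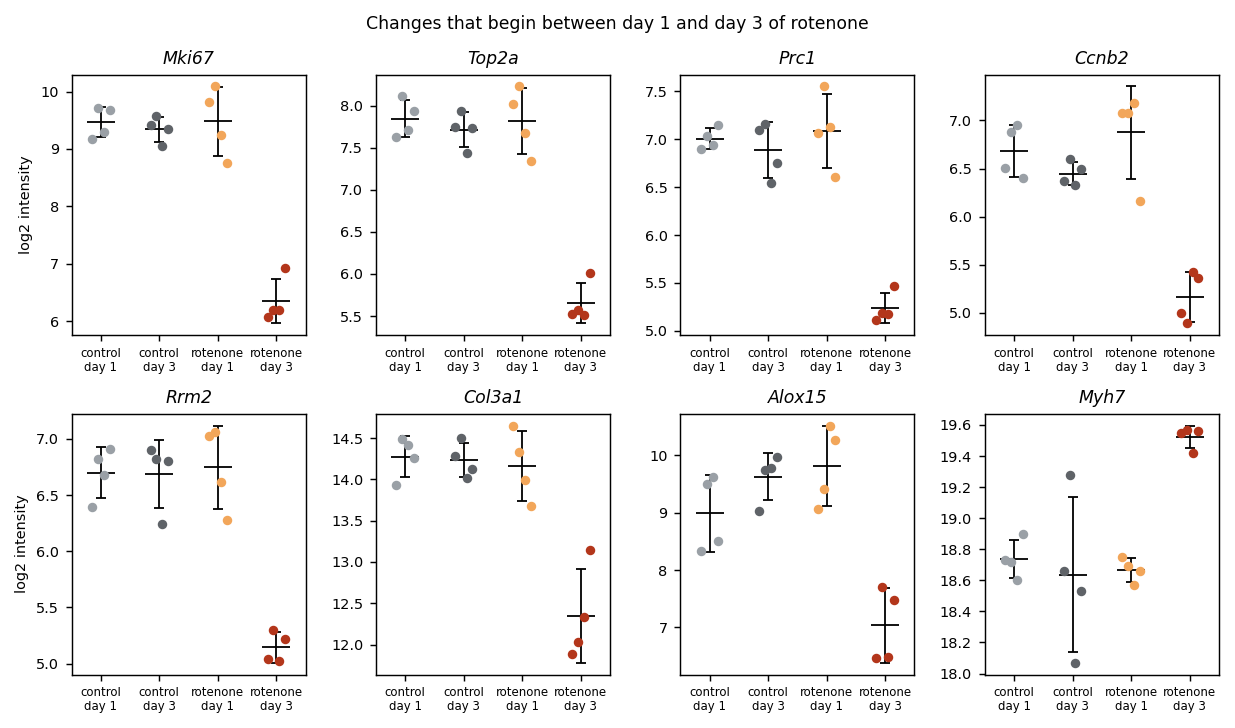
Log2 intensity of 8 begun genes in each array (points) with the group mean and SD (bars) for control and rotenone hearts of days 1 and 3, 4 rats a group. In each panel the 4 rotenone day 3 arrays stand apart from the rotenone day 1 arrays, below them except for Myh7.

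Many mitotic genes are switched on late in the cell cycle through the cell cycle homology region (CHR, letters TTTGAA) and nearby CCAAT boxes of their promoters, so both motifs were searched on either strand of the 250 bases before the start of each gene (RefSeq, build GRCr8; 17125 of the measured genes matched). Of 37 called mitosis genes with a promoter in the table, 17 (45.9%) held the CHR letters and 25 (67.6%) a CCAAT box, against 14.4% and 35% of all measured genes. The whole mitosis list, called or not, held them in 29 (50%) and 40 (69%) of 58 promoters, shares no lower than those of its called genes. Among the 100 bases next to the start the shares were 39.7% and 56.9% in the whole list and 35.1% and 62.2% in its called genes, against 4.98% and 18.2% of all measured genes. The DNA replication genes held the CHR letters in 2 of 34 promoters (5.88%) and a CCAAT box in 20 (58.8%). A match of letters is a description of the window and does not show a site in use. The E2F site TTTCCCGC was held by 1.16% of the measured genes, by 0 of the 58 mitosis genes in the table and by 3 of the 34 DNA replication genes (8.82%). Of the 13 called mitosis genes with CHR letters in the 100 bases before the start, 9 had an annotated transcript that could reach into the window, and the stretches of the other 4 are shown to let the letters be seen in place, written 5′ to 3′ on the gene's strand with CHR and CCAAT letters of either strand in capitals.
Top2a, chr10:84473094-84473193, minus strand: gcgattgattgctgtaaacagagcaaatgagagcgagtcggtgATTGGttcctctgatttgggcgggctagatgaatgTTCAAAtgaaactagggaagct
Aspm, chr13:53625484-53625583, plus strand: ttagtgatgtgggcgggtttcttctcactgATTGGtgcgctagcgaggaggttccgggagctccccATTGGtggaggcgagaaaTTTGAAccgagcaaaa
Anln, chr8:29197514-29197613, minus strand: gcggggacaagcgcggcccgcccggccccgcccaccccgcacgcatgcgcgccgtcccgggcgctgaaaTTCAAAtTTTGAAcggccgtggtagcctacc
Ncapg, chr14:69645446-69645545, minus strand: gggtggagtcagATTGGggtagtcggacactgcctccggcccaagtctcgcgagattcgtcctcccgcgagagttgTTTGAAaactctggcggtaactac
The CHR letters of these 4 promoters end 17, 11, 19 and 19 bases before the start, and a CCAAT box lies farther upstream in Top2a, Aspm and Ncapg but not in this window of Anln. In the rotenone hearts Anln fell by 1.13 and Ncapg, a condensin subunit, fell by 1.04.

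Genes of DNA replication moved less than those of mitosis. Of 42 measured, 3 fell and none rose, with a median of -0.13. Only 3 of the 42 had a mean above the negative control bound, and the contrast with the mitosis list was not tested. The 3 that fell, Rrm2, Tk1 and Uhrf1, had means of 6.07, 6.27 and 5.78, below that bound. Rrm2, the small subunit of ribonucleotide reductase, read 6.28, 6.62, 7.03 and 7.06 at day 1 and 5.02, 5.04, 5.22 and 5.3 at day 3, a change of -1.60 (SE 0.22, adjusted p = 0.000969). The other falls were Tk1, thymidine kinase, at -0.80, and Uhrf1, which guides maintenance of DNA methylation, at -0.50, the latter without its call in 14 of 16 fits that left out 1 array. The MCM helicase subunits, which license replication origins, had values between -0.38 (Mcm3) and -0.03 (Mcm7), none called.

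Histone genes, most of which are transcribed during DNA replication, had a median of -0.39 over 38 symbols, 6 of them called lower and none higher. Of all 22093 genes, 91 were called lower and 21 higher. Hist2h3c2 read 9.93, 10.39, 10.99 and 11.85 at day 1 and 8.06, 8.29, 8.3 and 8.47 at day 3, whereas control hearts read 9.97 to 11.07. Its change of -2.51 (SE 0.36, adjusted p = 0.00153) stood against a control change of -0.35. Probes of histone copies share sequence, so the values of single histone genes are uncertain, as are those of Rrm2l1 and Anlnl1, whose symbols mark copies of Rrm2 and Anln. The histone symbols were grouped after their values had been seen.

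Red cell genes moved in the same direction as the mitosis genes. The 17 erythroid markers had a median change of -0.80 in rotenone and 0.10 in control hearts, with 1 called lower and 16 of 17 negative. In 10 of 17 the values of both rotenone days did not overlap, against 1319 of all 22093 genes (5.97%). The mean erythroid signal ran from 9.12 to 9.96 at rotenone day 1, from 8.27 to 8.83 at rotenone day 3 and from 9.06 to 9.55 in the control hearts of both days. Slc4a1, the band 3 anion exchanger of the red cell membrane, read 9.22, 9.38, 9.66 and 9.96 at day 1 and 7.75, 7.95, 8.03 and 8.08 at day 3, a change of -1.60 (SE 0.27, adjusted p = 0.00767) against a control change of 0.46. Alas2, the first enzyme of haem synthesis in red cells, read 10.99 to 12.86 at day 1 and 8.25 to 10.15 at day 3 without reaching the threshold (-2.61, adjusted p = 0.108). The globin Hba-a1 read 19.23 to 19.57 at day 1 and 18.06 to 19.22 at day 3 (-0.80, adjusted p = 0.804). The globins Hba-a3 (-1.93, adjusted p = 0.426) and Hbb-b1 (-1.71, adjusted p = 0.622) had larger changes that were not called either. In these globins and Alas2, rats 1 and 3 of rotenone day 3 read lower than rats 2 and 4. For Hba-a1 the values were 18.06 and 18.19 against 19.06 and 19.22. The erythroid transcription factors were at -0.25 (Gata1) and -0.22 (Klf1). Both read between 4.95 and 5.91 in the 16 arrays of days 1 and 3, far below the negative control bound, where a fall can hardly show. How much of the fall of the mitosis and histone genes came with the red cell signal was not tested.

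Alox15, a lipoxygenase of leukocytes and maturing red cells, fell by 2.78 on the log2 scale (SE 0.38, adjusted p = 0.000888) and had the lowest p in the test of rotenone against control change. It read 9.06, 9.41, 10.27 and 10.52 at rotenone day 1 and 6.47, 6.48, 7.48 and 7.7 at day 3, whereas control hearts went from 8.33 to 9.62 at day 1 to 9.03 to 9.97 at day 3. The control change of 0.64 ran the other way, and the difference between both changes was -3.42 (SE 0.53, adjusted p = 0.0826 over all transcript clusters and 0.0246 over genes). As the day 3 signal lay under the negative control bound, no fold is given. At day 14 the difference of Alox15 from control was -2.35.

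Collagen and matrix genes moved down as well. Of 44 measured, 6 fell and none rose, 43 of 44 values were negative and the median was -0.45, against -0.04 in control hearts. At day 1 none of the 44 was called against control, although only 7 lay above it (median -0.13). At day 3 there were 15 called lower (median -0.50) and at day 14 there were 23 (median -0.73). The list thus went further down over the time points in the group medians. Of all 22093 genes, 141, 306 and 793 were called lower at days 1, 3 and 14. Thbs1, an adhesive glycoprotein, had the only positive value (0.47, adjusted p = 0.905).

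Col3a1, the chain of collagen III, read 13.68, 13.99, 14.33 and 14.65 at rotenone day 1 and 11.88, 12.03, 12.33 and 13.15 at day 3, and control hearts read 13.93 to 14.5. Among the 16 arrays of days 1 and 3, the rotenone arrays of day 3 were the lowest, 1 of them closer to the rest. It fell by 1.81 (3.52-fold, SE 0.32, adjusted p = 0.0135), and the control change was -0.04. The chains of collagen I moved alike, Col1a1 by -1.49 (adjusted p = 0.0273) and Col1a2 by -1.27 (adjusted p = 0.0208), as did Col5a1 (-0.67) and Col5a2 (-0.74) of collagen V. Mfap4, a microfibril-associated protein, read 11.82 to 12.46 at day 1 and 10.16, 11.16, 11.31 and 11.37 at day 3, a change of -1.23.

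These collagen calls were lost more easily when the setting changed. With array medians set equal, 2 of the 44 matrix genes were called, and after quantile normalization 8. Col3a1 and Col1a2 lost them without rat 1 or 2 of rotenone day 1 or rat 1, 2 or 3 of rotenone day 3, and Col1a1 and Col5a1 also without rat 3 of rotenone day 1. Mfap4 lost its call without rat 1, 2 or 3 of rotenone day 1 or rat 1 of rotenone day 3. In these fits Col3a1 ranged from -2.08 to -1.65, Col1a1 from -1.70 to -1.23, Col1a2 from -1.46 to -1.10, Col5a1 from -0.76 to -0.58 and Mfap4 from -1.37 to -0.95. The day 14 difference from control was -3.16 for Col3a1, -2.74 for Col1a1, -2.36 for Col1a2 and -2.68 for Mfap4, all called. The 13 fibroblast markers had a median change of -0.47 (control -0.02) with 1 positive value. At day 3, 7 of them were called below control, against 306 of all 22093 genes. The 3 called between both days were the collagen chains Col1a1, Col1a2 and Col3a1. Postn missed the threshold (-1.45, adjusted p = 0.0657), although it read 7.55 to 8.66 at rotenone day 1 and 5.93 to 7.25 at day 3. Against control it was called lower at day 3 (-1.91, adjusted p = 0.00281). The receptor Pdgfra was at -0.38, Dcn at -0.31, the transcription factor Tcf21 at -0.12 and Gsn, the positive one, at 0.41, none called. At rotenone day 3 Postn and Tcf21 lay below the negative control bound. The mean fibroblast signal ran from 10.90 to 11.46 at rotenone day 1 and from 10.05 to 10.81 at day 3.

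Muscle and energy genes were few among the falls. Acta1, the skeletal alpha-actin that the fetal and the stressed heart express, read 17.49, 17.51, 17.71 and 18.03 at rotenone day 1 and 15.12, 15.8, 16.17 and 16.45 at day 3. It fell by 1.8 (SE 0.34, adjusted p = 0.0194), while control hearts spread from 16.53 to 18.28 at day 3, and the call was lost without rat 3 or 4 of rotenone day 1 or rat 2 or 3 of rotenone day 3 (range -1.99 to -1.55). At day 14 Acta1 was at -0.45 against control and not called.

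Ucp2, a mitochondrial carrier, read 15.88 to 16.21 at day 1 and 14.23, 15.02, 15.04 and 15.1 at day 3, a change of -1.21 (adjusted p = 0.0333) that missed the threshold without any 1 of the 8 rotenone arrays (range -1.29 to -1.0). Bdh1, which interconverts the ketone bodies, read 9.36 to 9.6 at day 1 and 8.11, 8.39, 8.39 and 8.63 at day 3, a change of -1.10 (adjusted p = 0.0175). Its call was lost without rat 2, 3 or 4 of either rotenone day (range -1.19 to -1.02). Both were called below control at day 14, with -1.86 for Ucp2 and -1.59 for Bdh1. Phkg1, the catalytic subunit of phosphorylase kinase that triggers glycogen breakdown, was at 7.94 to 8.59 on day 1 and at 7.31 to 7.65 on day 3 (-0.91, adjusted p = 0.00572). It lay above control at day 1 (0.45) and below it at day 3 (-0.58), neither difference called.

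Only 5 transcript clusters began to rise, and 4 of them had a gene symbol. Nkain1, which interacts with the sodium pump, read 11.61, 11.96, 11.98 and 11.99 at day 1 and 12.77, 12.83, 13.05 and 13.2 at day 3, a rise of 1.08 (SE 0.14, adjusted p = 0.000512) against 0.28 in control hearts. C6h14orf180 went from 10.14 to 10.28 up to 10.99 to 11.36, a rise of 0.99 (SE 0.13, adjusted p = 0.000512), with a control change of -0.01. In both the rotenone groups did not overlap, and C6h14orf180 was also 0.60 above control at day 14 (adjusted p = 0.00987).

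Myh7, the slow beta-myosin heavy chain, is raised in the stressed rodent ventricle. It read 18.57, 18.66, 18.69 and 18.75 at day 1 and 19.42, 19.55, 19.56 and 19.57 at day 3, and control hearts ranged from 18.07 to 19.28. The rise of 0.85 (SE 0.18, adjusted p = 0.0425) was lost in 14 of 16 fits that left out 1 array (range 0.82 to 0.89). Tesc, a calcium-binding protein, rose by 0.44 (adjusted p = 0.0496). Nppb, the precursor of B-type natriuretic peptide, read 11.83, 12.47, 12.73 and 12.82 at day 1 and 13.44, 13.5, 14.01 and 14.93 at day 3. Its rise of 1.5 (2.84-fold, SE 0.32, adjusted p = 0.0487) was lost in 16 of 16 such fits (range 1.19 to 1.68). Control hearts, at 12.85 to 13.72, lay above the rotenone hearts of day 1 and overlapped with those of day 3. Nppb was not called against control on either day (-0.77 at day 1, 0.50 at day 3).

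The changes that faded had as their leading gene Tubb4b, a beta-tubulin. In rotenone hearts it read 12.22, 12.5, 12.56 and 12.56 at day 1 and 13.28, 13.32, 13.48 and 13.73 at day 3, whereas control hearts read 13.44 to 13.59 at day 1 and 13.05 to 13.69 at day 3. Among the 16 arrays of days 1 and 3, the rotenone hearts of day 1 were the lowest, and those of day 3 overlapped with their controls. Against control the difference was -1.04 at day 1 (adjusted p = 0.00282) and 0.06 at day 3, and the rise between both days was 0.99 (SE 0.16, adjusted p = 0.00564), against -0.12 in control hearts. The call was kept in each of 16 fits without 1 array. A transcript cluster of the pseudogene Tubb4b-ps2 changed by 1.05, and the array may not separate the pseudogene from the gene.

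Of 20 measured tubulins, 2 rose between both days (Tubb4b and the centrosomal Tubg1, 0.56) and none fell, with a median of 0.17 and 17 positive values. At day 1 their median difference from control was -0.36 with 6 called lower (141 of all 22093 genes), and at day 3 it was -0.14 with none called. The mean tubulin signal ran from 8.32 to 8.36 in the 4 rotenone hearts of day 1, from 8.52 to 8.66 in those of day 3 and from 8.59 to 8.88 in the control hearts of both days, so that the rotenone days did not overlap. Alpha-tubulins Tuba1a and Tuba1b, at -0.94 and -0.90 against control on day 1, were at -0.54 and -0.39 on day 3, and their day 3 minus day 1 change of 0.42 each was not called. Tubb5 stayed at -0.71 and -0.59, neither called, and changed by 0.08. Tubg1 lost its call without rat 1 or 3 of rotenone day 1 or rat 1, 2 or 3 of rotenone day 3 (range 0.52 to 0.64). Tubulin genes are close copies of each other, and probes may read more than 1 of them.

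**Figure D3:**
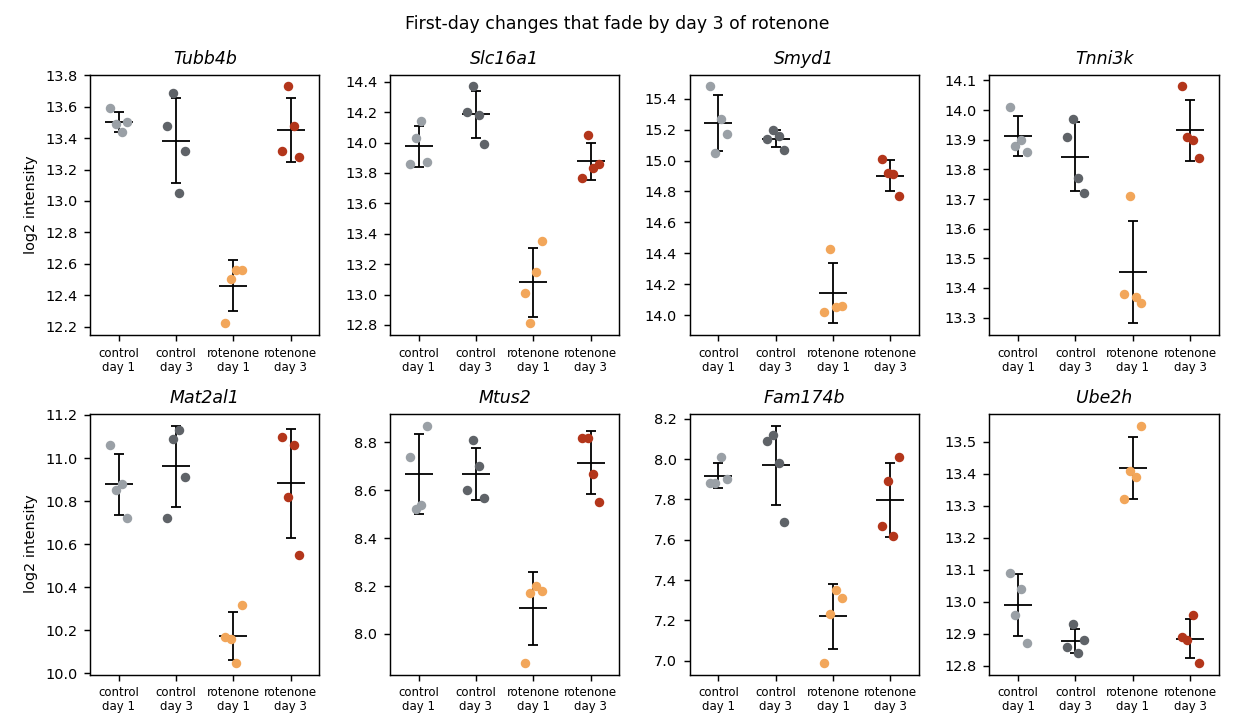
Log2 intensity of 8 of the 9 named faded genes in each array (points) with the group mean and SD (bars), 4 rats a group. The rotenone day 1 arrays stand apart from the rotenone day 3 arrays in each panel, below them except for Ube2h, and the day 3 arrays lie near or among the controls.

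Slc16a1, the monocarboxylate transporter that carries lactate and ketone bodies across the cell membrane, read 12.81, 13.01, 13.15 and 13.35 at rotenone day 1 and 13.77, 13.83, 13.86 and 14.05 at day 3. The control hearts, at 13.86 to 14.37, lay above all rotenone hearts of day 1 and overlapped with those of day 3. It rose by 0.80 (SE 0.12, adjusted p = 0.00354), with a difference from control of -0.89 at day 1 and -0.31 at day 3, and control hearts changed by 0.21. Smyd1, a methyltransferase of striated muscle needed for sarcomere assembly, read 14.02, 14.05, 14.06 and 14.43 at day 1 and 14.77, 14.91, 14.92 and 15.01 at day 3, a rise of 0.76 (adjusted p = 0.014). Its day 3 values remained below the lowest control (15.05), and at day 14 it was again called lower than control (-0.52). The call of the rise was lost without rat 1 or 3 of rotenone day 1 or rat 1, 2 or 3 of rotenone day 3 (range 0.72 to 0.86), and the rises of both Smyd1 and Slc16a1 missed the threshold after quantile normalization.

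The other faded genes moved by less. Tnni3k, a kinase of heart muscle cells, went from 13.35 to 13.71 at day 1 to 13.84 to 14.08 at day 3, with a difference from control of -0.46 and then 0.09. Mtus2, a microtubule-associated protein, rose by 0.61 from -0.56 against control at day 1 to 0.04 at day 3, and Fam174b rose by 0.58 from -0.70 to -0.18. Mat2al1, by its symbol a copy of the S-adenosylmethionine synthetase Mat2a, rose by 0.71, and Mat2a itself by 0.70 (adjusted p = 0.0496), although its day 1 difference from control (-0.60, adjusted p = 0.0783) missed the threshold. Calls were lost in 8 of 16 fits without 1 array for Tnni3k, 14 for Mtus2, 15 for Fam174b, 14 for Mat2a and 5 for Mat2al1 (without rat 1, 2 or 3 of rotenone day 1 or rat 1 or 3 of rotenone day 3). For Tnni3k these were rat 1, 3 or 4 of rotenone day 1, rat 1, 2 or 3 of rotenone day 3 and rat 2 or 3 of control day 1, with a range of 0.43 to 0.56.

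Only 3 transcript clusters fell back. Ube2h, a ubiquitin-conjugating enzyme, read 13.32, 13.39, 13.41 and 13.55 at rotenone day 1 and 12.81, 12.88, 12.89 and 12.96 at day 3, a change of -0.53 (SE 0.09, adjusted p = 0.0113) to the level of the control hearts (12.84 to 13.09). The other two had no gene symbol. The larger one read 7.93, 9.77, 9.94 and 11.79 at day 1 and 6.28, 6.59, 7.36 and 7.59 at day 3, and control hearts read 5.6 to 7.76. It stood 3.08 above control at day 1 and 0.23 at day 3, and it fell by 2.90 (adjusted p = 0.0382).

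Of the 36 called transcript clusters that differed from control on neither day, 12 rose and 24 fell, and 33 lay on opposite sides of control at day 1 and day 3. All 12 rising ones were below control at day 1, and 23 of the 24 falling ones were above it. Among the rises were membrane and signalling genes of heart muscle. Bves, a cyclic AMP-binding membrane protein of heart muscle, read 10.68, 11.07, 11.16 and 11.33 at day 1 and 11.77, 11.87, 11.99 and 12.23 at day 3, a rise of 0.91 (SE 0.15, adjusted p = 0.00767) from -0.65 against control (adjusted p = 0.0579) to -0.03. Control hearts changed by 0.28. Adcy5, the main adenylyl cyclase of the ventricle, rose by 0.58 (adjusted p = 0.0215), the alpha-1B adrenergic receptor Adra1b by 0.67 (adjusted p = 0.0482), the calcium channel subunit Cacnb2 by 0.58 (adjusted p = 0.0482) and Stk39, a kinase that regulates ion transporters, by 0.54 (adjusted p = 0.0113). Adra1b lost its call in 14 and Cacnb2 in 15 of 16 fits without 1 array, and Adcy5 without rat 1 or 3 of rotenone day 1 or rat 1, 2 or 3 of rotenone day 3 (range 0.48 to 0.63). Among the falls were Birc5 (survivin, -1.0), the phosphatase Cdc25b (-1.37), which starts mitosis, and the metalloprotease Adamts12 (-1.26).

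Seen from the first day, 14 of 337 changes met the definition of faded. That definition needs a called change between both days, so a missing call does not show that a difference lasted. Rotenone differed from control in 337 transcript clusters (0.49%) at day 1 and in 578 (0.84%) at day 3, 2 comparisons that share no array. Of the 337, 132 (39.2%) were called at day 3 in the same direction and 0 in the opposite one, and 317 kept their sign. First-day rises were called again in 67 of 137 cases (48.9%) and first-day falls in 65 of 200 (32.5%), and the difference between both shares was not tested. The day 3 difference was at the median 66.3% of that of day 1, 73.2% among rises and 59.9% among falls. It was under 50% in 123 transcript clusters, under 25% in 42, and larger than at day 1 in 59. As the 337 were chosen for a large value at day 1, a smaller median at day 3 is built into this count. In the opposite view, 187 of the 578 day 3 calls had less than 25% of their difference at day 1, and 132 were called on both days.

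**Figure D4:**
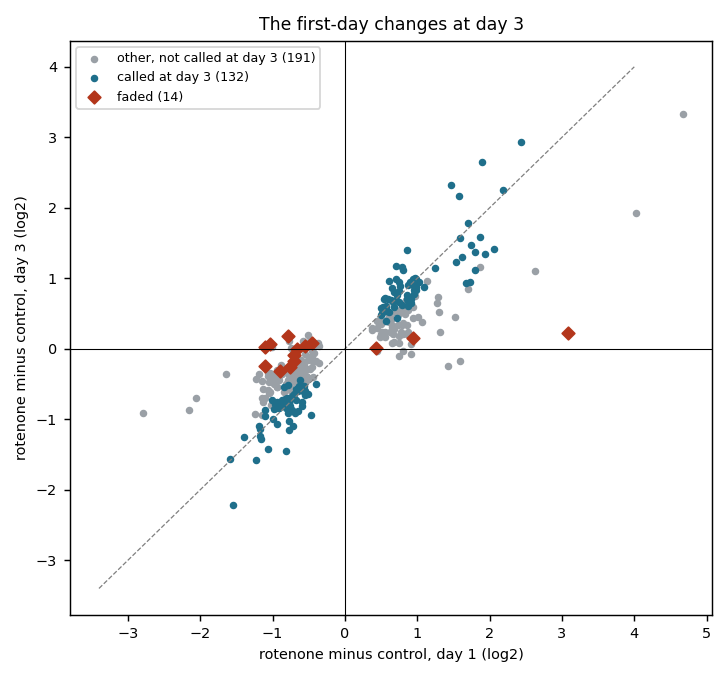
Rotenone minus control (log2) at day 3 against the same difference at day 1 for the 337 transcript clusters called at day 1; diamonds are the 14 faded ones, dark points the 132 called again at day 3, and the dashed line marks equal values. Most points lie on the same side of 0 on both days, and the faded ones lie near 0 on the day 3 axis.

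Genes of fatty acid use were mostly held. All 6 fatty acid oxidation genes called higher at day 1 (Cpt1a, Cpt1b, Ech1, Mlycd, Cd36 and Acot2) were called at day 3, with a median of 105% of the first-day difference, and none of the 27 measured changed between both days (median 0.09, against 0.02 in control hearts, and -0.11 after quantile normalization). Cpt1a, which admits fatty acids to mitochondria, read 11.03, 11.04, 11.07 and 11.11 at rotenone day 1 and 10.64, 10.64, 10.86 and 10.89 at day 3, and control hearts read 9.33 to 10.19. Its difference from control was 1.25 at day 1, 1.14 at day 3 and 1.15 at day 14. Of the 8 PPAR alpha and fasting targets called at day 1, 6 were called at day 3. The other two were Pdk4, the kinase that shuts pyruvate dehydrogenase, at 4.02 above control on day 1 and 1.93 on day 3, and Angptl4, a lipase inhibitor, at 2.63 and 1.10. Their changes between both days, -1.75 (SE 0.61, adjusted p = 0.459) and -1.29 (SE 0.47, adjusted p = 0.515), were not called. All 4 cholesterol synthesis genes called lower at day 1 and the clock repressors Nr1d1 (2.43 and 2.93) and Nr1d2 (1.47 and 2.33) were called on both days.

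Of 22 triglyceride genes none was called between both days, and 4 of the 6 called higher at day 1 were called again at day 3. Gpam, the first enzyme of glycerolipid synthesis, read 13.53, 13.99, 14.08 and 14.25 at rotenone day 1 and 13.06, 13.19, 13.33 and 13.38 at day 3, without overlap, and control hearts read 11.94 to 12.42. The difference from control went from 1.68 to 0.93, and the change of -0.72 between both days was not called (adjusted p = 0.151). Pnpla2, the adipose triglyceride lipase, went from 1.62 above control to 1.31 above it, with rotenone arrays of both days overlapping (15.18 to 15.61 and 14.64 to 15.8). Tcp11l2 went from 1.70 to 0.84 and Lrrd1 from 1.52 to 0.45, neither of them called at day 3 (adjusted p = 0.0684 and 0.301), and their changes between both days missed the threshold (adjusted p = 0.255 and 0.116). Vwa8 (0.96 and 0.84), Lonp2, a peroxisomal protease (0.71 and 0.43), Egln3, an oxygen-sensing prolyl hydroxylase (-1.39 and -1.25), and the 14-3-3 protein Ywhah (-0.79 and -0.51) were called on both days.

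Several lists had mostly positive values without a single call. The 41 cytosolic ribosomal protein genes had a median of 0.27 and 40 positive values in rotenone hearts, against -0.16 and 1 positive value in control hearts, and the mean signal ran from 11.48 to 11.69 at rotenone day 1 and from 11.76 to 11.92 at day 3. After quantile normalization the median was 0.11 with 34 positive values. The median difference of the list from control was -0.11 at day 1, 0.31 at day 3 and 0.49 at day 14. On day 14, 21 of the list were called higher, against 492 of all 22093 genes. For the 19 endoplasmic reticulum chaperones the median was 0.17 with 17 positive values, and for the 14 clock repressors and output factors it was 0.36 with 12 positive values, among them Bhlhe40 at 0.96 and Dbp at 0.85. In all 14 clock genes the values of both rotenone days overlapped. Bhlhe40 read 11.34 to 11.87 at rotenone day 1 and 11.37 to 13.45 at day 3, and Dbp read 7.16 to 7.63 and 7.34 to 9.3. In both genes, rats 1 and 3 of rotenone day 3 read lower than rats 2 and 4, as in the globins above. Immediate early genes had a median of 0.08 in rotenone and 0.36 in control hearts. The 35 complex I subunits, the target of rotenone, had a median of 0.08 with none called, which turned to -0.07 after quantile normalization.

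**Figure D5:**
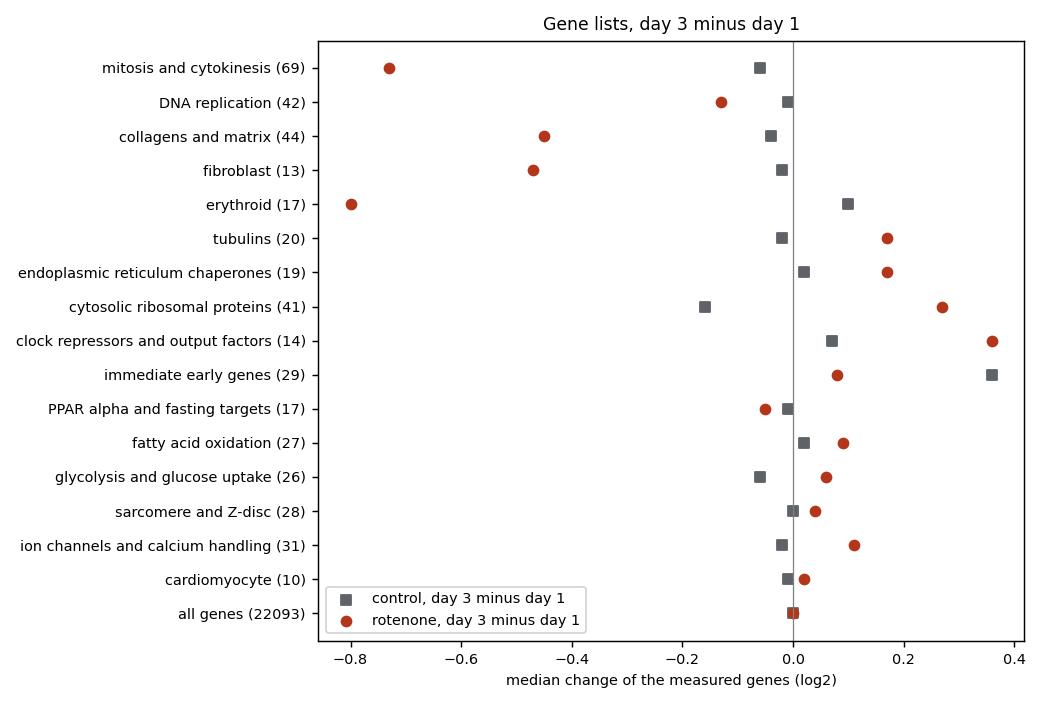
Median day 3 minus day 1 change (log2) of the measured genes of 16 lists and of all genes in rotenone (circles) and control hearts (squares), with the number of genes in brackets. The mitosis, erythroid, fibroblast and collagen lists lie between -0.80 and -0.45 in rotenone, while their control medians lie between -0.06 and 0.10.

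Markers of other cell types had no called gene in the endothelial, smooth muscle, macrophage, neutrophil, lymphocyte, adipocyte, nerve, mesothelial and platelet lists, with medians between -0.20 (platelets) and 0.11 (mesothelium). Their part in the results above was not tested.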

How the data were processed

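Total RNA of 24 hearts was read on Affymetrix Rat Transcriptome Array 1.0. The deposited values are linear intensities, 1 per transcript cluster and array, which the authors normalized by GC count normalization, signal space transformation and RMA, steps that make arrays alike in scale. How far these steps alter the size of changes in dim signals was not tested. Of 70580 transcript clusters, 1738 control rows were left out. The rest was set to log2 and fitted with limma 3.58.1 (R 4.3.3) as 6 group means over 24 arrays, with Benjamini-Hochberg adjustment over 68842 and a threshold of 0.05. Gene symbols came from the platform annotation (23446 transcript clusters with 1 symbol, 505 with several, 44891 with none), and the brightest transcript cluster stood for each of 22093 genes. The p-values of the main fit rest on the spread between rats within groups, pooled over the 6 groups and moderated across transcript clusters. The labels give groups and replicate numbers but no cage or scan batch, so batches among the 4 rats of a group could not be examined.

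Genes were named by rule: the 15 largest non-overlapping rises and falls, the 10 smallest p of the difference between rotenone and control change, of the faded class, of the begun class and of day 1, and up to 4 called genes per list. Besides these 57 genes, others were named after their values had been seen, among them Kif11, Knl1, Ect2, Kif23, Anln, Ncapg, Cdk1, Ccnb1, Alas2, the globins, Col5a2, Tuba1a, Tuba1b, Tubb5, Birc5, Cdc25b, Adamts12, Stk39, Pdk4, Angptl4, Bhlhe40 and Dbp. The comparison and all 54 gene lists were chosen with earlier results of these data known. In all, 14 promoter motifs were searched (Python 3.11.15), of which 3 are described. The model was tested on simulated data. Alternatives were other scalings, filters, variance models, array sets, a replicate block, an unmoderated fit as in the study's methods, and leaving out each array. Same-numbered rotenone rats of days 1 and 3 had deviations correlated at -0.41, 0.2, -0.05 and 0.06, so the numbers were not taken as pairs.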

Additional observations from a re-analysis of the deposited data

Results flagged for a closer look

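Among 228 combinations of a named gene and a group of 4 rats of days 1 and 3, 22 had 1 rat far from the other three by Dixon's ratio, and chance flags about 1 in 20 groups. In the rotenone hearts of day 1 these were Nkain1 at 11.61, Smyd1 at 14.43 and Tnni3k at 13.71, all in rat 2, Mtus2 at 7.88 in rat 1, Adcy5 at 12.31 in rat 3 and Ccnb2 at 6.16 in rat 4. In the rotenone hearts of day 3, rat 4 read high for Mki67 (6.92), Top2a (6.01) and Kif20a (5.51), rat 3 low for Myh7 (19.42), Ckap2 (4.62) and Rrm2l1 (5.26), and rat 2 low for Ucp2 (14.23) and high for Lonp2 (10.78). In control hearts of day 1 these were Fam174b at 8.01 in rat 3 and, in rat 4, Ckap2 at 6.67, Gpam at 11.94 and Lonp2 at 10.1. In control hearts of day 3 these were Rrm2 at 6.24 and Tcp11l2 at 13.7 in rat 3, Gpam at 12.11 in rat 2 and Vwa8 at 11.6 in rat 1.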

How the results depend on the processing

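The control comparison gave 0 calls in every alternative that held control arrays (2443 transcript clusters at an unadjusted p under 0.05 in limma) and in each fit without 1 array. For rotenone day 3 against day 1, the 144 calls became 82 with array medians set equal, 93 with a change of at least 1.8-fold, 22 with only the 8 rotenone arrays of days 1 and 3, and 227 with 1 transcript cluster per gene, where fewer are tested. The difference between rotenone and control change, with 0 calls, had 6 after quantile normalization, 10 with a mean above the median of all, 2 with trend and robust variances, 17 with array weights, 11 with only the 16 arrays of days 1 and 3, and 33 with 1 transcript cluster per gene. The 14 faded changes became 7 with equal medians, 32 above the median of all, 36 above the negative control bound, 30 with log2(intensity + 16), 4 at 1.8-fold and 40 with 1 transcript cluster per gene. The 94 begun changes became 61 with equal medians, 47 above the bound and 146 with 1 transcript cluster per gene. Apart from the last settings, where fewer features or samples entered, the cause was not tested.

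Leaving out 1 array gave 74 to 134 calls for rotenone day 3 against day 1, 0 to 0 for control, 0 to 16 for the difference, 3 to 12 faded and 51 to 96 begun changes. The count was 84 without rat 1 and 87 without rat 3 of rotenone day 1, and 78, 83 and 74 without rats 1, 2 and 3 of rotenone day 3. With the replicate block there were 125 calls (21 higher, 104 lower), 0 for the difference, 10 faded and 85 begun changes. The unmoderated fit gave 150. Of the 57 genes named by rule, 34 changed side of the threshold with the 8 rotenone arrays alone, 14 with equal medians, 10 after quantile normalization and 6 with the replicate block, and none reversed. Equal medians gave 11% higher calls (9 of 82) and quantile normalization 8.12% (13 of 160), against 19.4%.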
